A study of Drosophila melanogaster with 7 samples.

Results

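Neural stem cell, temporal patterning and Notch pathway genes were examined in larval brains that expressed RNAi against Iswi under elav-GAL4. Iswi encodes the motor subunit of the ISWI chromatin remodelling complexes. The list held 57 genes in 3 classes, 16 of neuroblast identity, 18 of temporal patterning and 23 of the Notch pathway, and a gene was taken as found when the deposited comparison gave its symbol. By that rule 9 of the 57 genes had a row in the authors' deposited table of 2366 genes, 2 neuroblast, 2 temporal and 5 Notch genes, and 48 had none. The study sequenced RNA from dissected nervous systems (central brain with ventral nerve cord) of mid-third-instar Drosophila melanogaster larvae, 4 days after egg lay at 25 °C. The knockdown group had 4 libraries of the genotype elav-GAL4>UAS-ISWI RNAi, and the control group had 3 libraries of elav-GAL4; +, which carry the same driver and no hairpin. Each library pooled 40 brains, and the labels call the libraries biological replicates. elav-GAL4 is a driver used for expression in neurons throughout the nervous system. The genes described here act mostly in the stem cells and young daughter cells around those neurons. Whether those stem and daughter cells also expressed the hairpin cannot be read from bulk RNA. The header of the deposited comparison calls its control attp2, a name that the labels do not use.

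Neuroblasts are the neural stem cells of the fly. They divide asymmetrically, keep themselves as stem cells and bud off smaller daughters that give rise to neurons and glia. As they age they switch through a series of temporal transcription factors and RNA-binding proteins, so that neurons born early and late differ. Notch signalling separates sister cells and keeps the stem cell state: a ligand such as Delta on one cell activates the Notch receptor on the next, and the receptor then turns on genes of the Enhancer of split complex through the DNA-binding protein Su(H).

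The values are those of the authors' deposited table, which gives for each gene 1 mean normalised count over the 7 libraries, 1 log2 fold change of knockdown over control, a p and an adjusted p. Values for single libraries were not analysed here, so the authors' p carries all that is known of the spread between libraries, and depth per library is unknown. Every gene in the authors' deposited table has a p under 0.1, so a member without a row was either tested with a p of 0.1 or more or was not tested, and no value can be given for it. The exception is Bob, which has a row under another symbol (BobA) and is described with the Notch genes. Iswi itself stood at 24.6% of the control level in the authors' deposited table (log2 fold change -2.03, implied standard error 0.06, adjusted p 5.1e-230). A gene was called where the authors' adjusted p was under 0.05. In bulk RNA, fewer cells of a type and less RNA per cell cannot be told apart. The nervous system label could not be checked on levels across the marker lists. Of 10 neuron markers Cadps alone (mean normalised count 7150) and of 10 glial markers Eaat2 alone (2240) had a row in the authors' deposited table. Both were called lower there, at -0.39 and -0.30 on the log2 scale.

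Of the 57 genes 2 were called. The proneural gene l(1)sc (lethal of scute) fell to 71.2% of the control level, and the temporal factor cas (castor) rose to 122%, in the authors' deposited table. Those are 1 of 16 neuroblast genes, 1 of 18 temporal genes and 0 of 23 Notch genes, the last by the authors' DESeq2 comparison. There, 3 Notch genes matched by symbol had an unadjusted p under 0.05, and so did BobA (p 0.0046). For comparison, 4.65% of the 10775 genes tested were called, 2.06% higher and 2.59% lower, and the share of the 57 genes called was 3.51%. The same 2 genes passed an adjusted p of 0.01 and, of genes matched by symbol, were the only ones to pass 0.1 (BobA, matched by identifier, is described with the Notch genes), limits that 2.92% and 6.38% of tested genes pass. At the looser limit of the authors' deposited table, p under 0.1, 21.5% of tested genes were listed (10.2% with a positive and 11.2% with a negative fold change), against 15.8% of the 57. The members' shares are of all 57 names, tested or not, while the background is of tested genes. By gene identifier 10 of the 57 were listed. Both shares of the members lie near the background or below it. No change of the 57 genes as a group can be read from them.

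**Figure D1:**
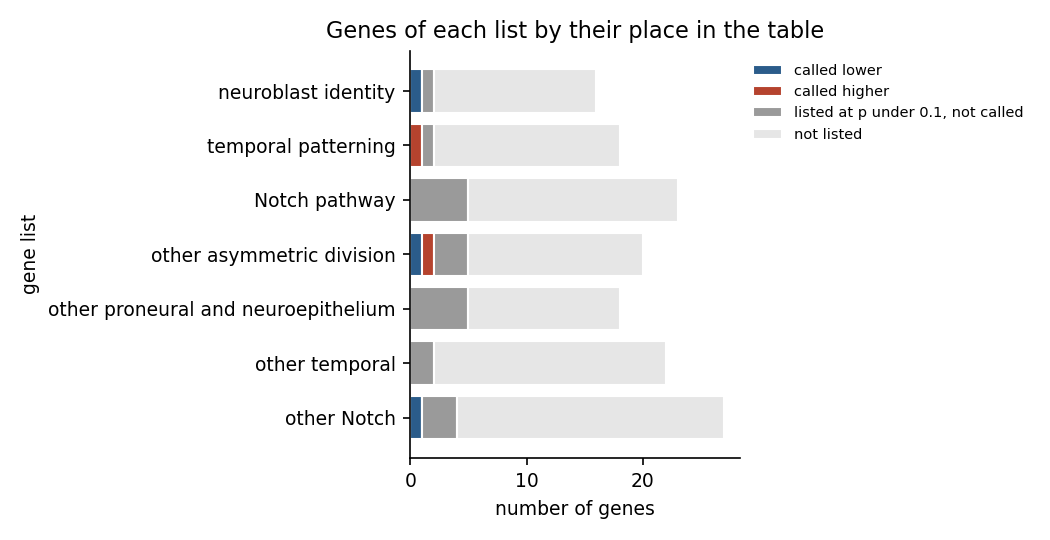
Number of genes (horizontal axis) in each of the 3 classes and of 4 lists of other genes from the same pathways, divided into called lower, called higher, listed at p under 0.1 without a call, and not listed. Most of every bar is the part not listed, and the 3 classes hold 1, 1 and 0 called genes.

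Among the genes of neuroblast identity, l(1)sc had the largest change of the 9 listed members in the authors' deposited table. It encodes a basic helix-loop-helix activator of the achaete-scute complex that confers neural precursor fate, and in the larval optic lobe it marks neuroepithelial cells about to become neuroblasts. Its mean normalised count was 449 and its log2 fold change -0.49 in the authors' deposited table (95% interval -0.75 to -0.23, adjusted p 0.0088). On the linear scale the interval runs from 59.3% to 85.4% of control. The implied standard error of 0.13 was larger than the median of 0.10 for the 50 genes with the nearest mean counts in the authors' deposited table, of which 7 were called and the smallest called change was 0.32. Of all 501 called genes in that table, 47.9% changed by more than l(1)sc in either direction.

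dpn (deadpan), a basic helix-loop-helix repressor present in nearly all neuroblasts and a standard marker of them, was the other listed neuroblast gene. In the authors' deposited table it had a mean normalised count of 844 and a log2 fold change of -0.19 (95% interval -0.33 to -0.05), or 87.6% of control. Its p was 0.0081 and its adjusted p 0.117, so it was not called, and the smallest change called among the 50 genes nearest in mean count was 0.23. In the annotation dpn (FBgn0010109, chromosome 2R, 8228971 to 8232330, minus strand, build BDGP6) overlaps 3 noncoding RNAs, 2 of them on its own strand, so reads may have been shared. The other 14 neuroblast genes had no row. They are the Snail-family factors wor, sna and esg, the proneural gene ase, the asymmetric division proteins mira, insc, pros and brat, and the transcription factors klu, grh, tll, erm, pnt and btd.

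l(1)sc (FBgn0002561) lies at chromosome X, 409721 to 410817, on the plus strand in build BDGP6, and has 1 exon. Its relatives ac, sc and ase of the same complex had no row in the authors' deposited table. The complex is flanked by called genes on both sides. y (yellow, a pigmentation gene), 48.5 kb before l(1)sc, had a log2 fold change of 3.37 in the authors' deposited table (adjusted p 3.3e-60). Cyp4g1, a P450 enzyme gene 56.2 kb after it, was higher by 3.36 in the authors' deposited table (adjusted p 0.024, with a wide implied standard error of 1.01). Of the 11 annotated genes from y through Cyp4g1, leaving out any that extends beyond them, 3 were listed, all 3 were called, and l(1)sc was the one with the lower value. y is often mutant or marked in laboratory stocks. Each group here is 1 genotype, so an effect of the knockdown on l(1)sc and a difference between the stocks in this stretch of X cannot be told apart. l(1)sc also lies inside the span of CG32816, a gene on the opposite strand that has no row in the authors' deposited table.

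**Figure D2:**
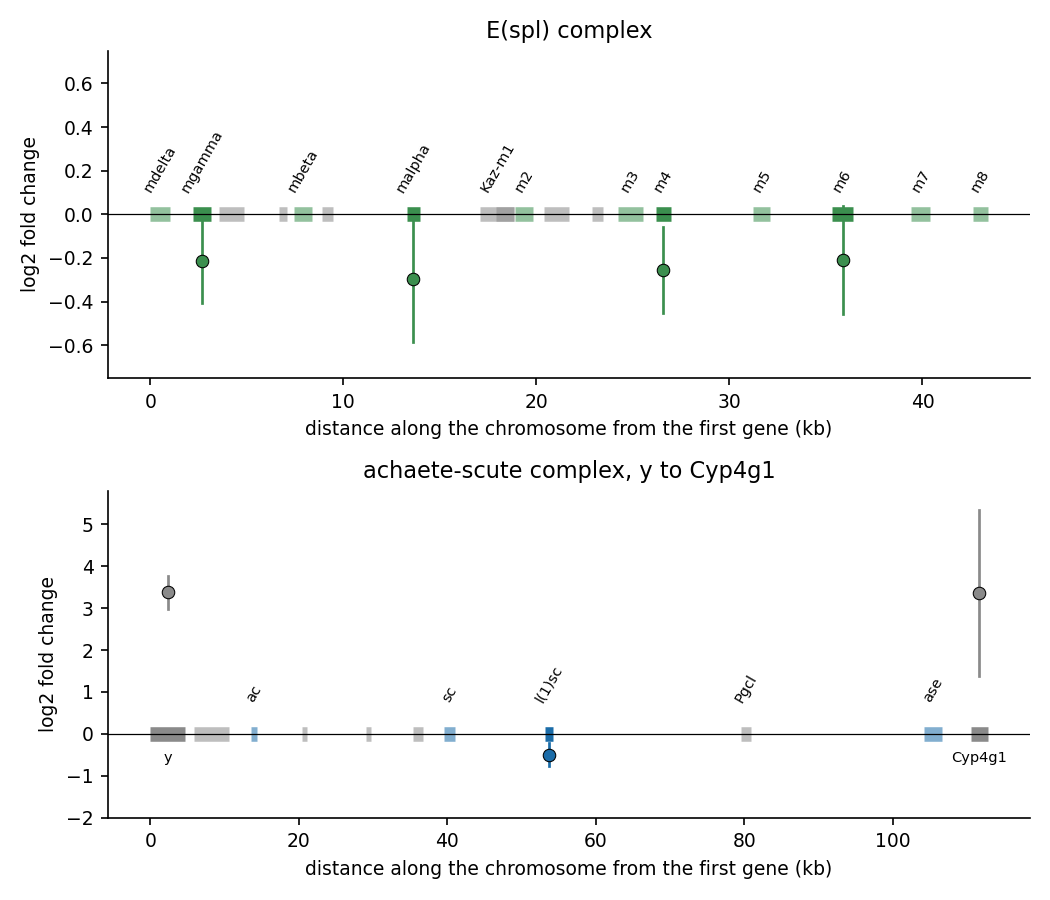
Log2 fold change of knockdown over control (vertical axis; points with bars for the 95% interval) against distance along the chromosome in kb, with annotated genes as blocks on the zero line, pale where not listed; unnamed blocks are noncoding RNAs. In the E(spl) complex (top) the 4 listed genes lie between -0.30 and -0.21; in the achaete-scute region (bottom) l(1)sc lies at -0.49 between y at 3.37 and Cyp4g1 at 3.36.

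Among the temporal genes cas had the smallest adjusted p of all members. It encodes a zinc-finger transcription factor late in the embryonic neuroblast series, which is also made in neuroblasts after they resume division in the larva. Its mean normalised count of 5057 was the highest of the 9 listed members in the authors' deposited table, also per length (1605 counts per kb of the gene length in that table). The log2 fold change of cas was 0.28 in the authors' deposited table (95% interval 0.14 to 0.42, adjusted p 0.0029), which puts the knockdown between 111% and 134% of control. The change was small beside other calls: 79.4% of the 501 called genes changed by more. Among the 50 genes with mean counts nearest to cas in the authors' deposited table, 37 had negative fold changes, 6 were called, and the smallest called change was 0.18. cas (FBgn0004878) lies on chromosome 3R, 5712975 to 5716805, minus strand, build BDGP6. It overlaps no other annotated gene, and 0 of the 7 other listed genes within 100 kb of it were called in the authors' deposited table.

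ey (eyeless), a Pax6 transcription factor that belongs to the temporal series of optic lobe neuroblasts and of intermediate progenitors, was the other listed temporal gene. It had a mean normalised count of 1496 and a log2 fold change of -0.17 in the authors' deposited table (95% interval -0.34 to -0.001, p 0.048, adjusted p 0.33), and was not called. ey (FBgn0005558) lies on chromosome 4, 697689 to 721173, plus strand, and the nearest listed gene, bt, 3.23 kb beyond it, had a log2 fold change of 0.30 (adjusted p 0.039) in the authors' deposited table. The temporal genes without a row include the opposing RNA-binding proteins Imp and Syp, which mark early and late larval neuroblasts, and the neuronal identity factors chinmo, br, mamo and Eip93F that act downstream of them. They also include the embryonic series members hb, Kr, nub and pdm2, the nuclear receptor svp, and lin-28, D, ab, dati and ham. None of the 16 can be given a value, so the comparison says nothing about the switch from Imp to Syp.

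**Figure D3:**
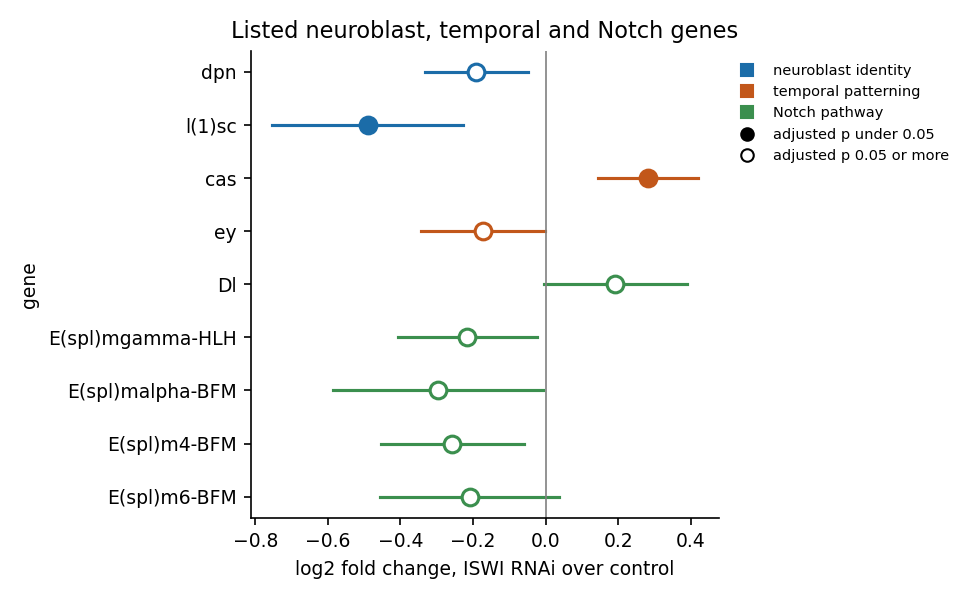
Log2 fold change of knockdown over control for the 9 listed members, coloured by class, with 95% intervals worked out from the authors' p. Filled points passed an adjusted p of 0.05 (l(1)sc at -0.49 and cas at 0.28); the other 7 are open, and 6 of those 7 lie below 0.

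Of the Notch pathway, the ligand Dl (Delta) and 4 genes of the Enhancer of split complex were listed, and 0 were called. Dl had a mean normalised count of 2285 and a log2 fold change of 0.19 in the authors' deposited table (95% interval -0.01 to 0.39, p 0.057, adjusted p 0.36). The smallest called change among the 50 genes nearest to Dl in mean count was 0.21. The table's own description field names this row dorsal, which is another gene. Its identifier FBgn0000463 and its position (chromosome 3R, 19302731 to 19326217, minus strand, build BDGP6) are those of Delta in the annotation, and it is described as Delta here. The receptor N, the second ligand Ser, the DNA-binding protein Su(H), its co-activator mam, its antagonist H, the co-repressor gro, the inhibitor numb and the target gene Hey had no row.

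The 4 listed genes of the E(spl) complex had log2 fold changes between -0.30 and -0.21 in the authors' deposited table, all negative and none called. E(spl)mgamma-HLH, a basic helix-loop-helix repressor that is a main Notch target in neuroblasts, stood at 86.1% of control (mean normalised count 1138, log2 fold change -0.22, 95% interval -0.41 to -0.02, adjusted p 0.25). The other listed ones are Bearded family members, small proteins that bind and inhibit Neuralized, the ubiquitin ligase that activates Delta. E(spl)m4-BFM stood at 83.7% (mean normalised count 902, log2 fold change -0.26, 95% interval -0.45 to -0.06) in the authors' deposited table, where its adjusted p was 0.139. E(spl)malpha-BFM stood at 81.4% (mean normalised count 287, log2 fold change -0.30, adjusted p 0.32) and E(spl)m6-BFM at 86.5% (mean normalised count 316, log2 fold change -0.21, adjusted p 0.46) in the authors' deposited table. The interval of E(spl)m6-BFM, -0.46 to 0.04, includes 0, and those of the other 3 end just below it.

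The E(spl) complex spans 43.4 kb of chromosome 3R (25997621 to 26041008, build BDGP6) and holds 12 protein-coding genes and 6 noncoding RNAs in the annotation. Of its 7 helix-loop-helix genes 1 was listed, and E(spl)mdelta-HLH, E(spl)mbeta-HLH, E(spl)m3-HLH, E(spl)m5-HLH, E(spl)m7-HLH and E(spl)m8-HLH had no row. Of its 4 Bearded family genes 3 were listed, without E(spl)m2-BFM. All 11 members in the complex have 1 exon, and the 4 listed ones alternate with genes not listed rather than forming a block. Per length, E(spl)mgamma-HLH and E(spl)m4-BFM had 1250 and 1188 mean counts per kb, against 425 for E(spl)malpha-BFM and 278 for E(spl)m6-BFM, in the authors' deposited table. The 5 listed genes within 100 kb outside the complex were CG42235 at 0.12 and Nf1 at 0.16 on one side, and Dak1 at -0.21, CG14544 at -0.24 and CG31324 at 0.22 on the other, none called, in the authors' deposited table.

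Outside the complex the Bearded family members Tom, Brd and Bob had no row under those symbols. Bob is an older name of BobA in the reference, and BobA had a row (FBgn0040487, chromosome 3L, 14945499 to 14946125, minus strand). Its mean normalised count was 36.3 and its log2 fold change -0.93 in the authors' deposited table (95% interval -1.57 to -0.29, adjusted p 0.08), or 52.5% of control, and it was not called. BobA was left out of the 9 listed members because the rule matches symbols. It is 1 of a group of similar Bob genes, among which the reads could have been split.

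Of the 9 listed members 7 had a negative and 2 a positive fold change, with a median of -0.21 on the log2 scale, against a median of -0.10 and 51.6% negative over all genes in the authors' deposited table. That table leans negative at the members' mean counts: 58.9% of its genes with a mean count of 200 to 1000, where 5 members lie, and 63.0% of those of 1000 to 5000, where 3 lie, were negative. The 4 E(spl) genes among the 7 belong to 1 gene complex and are not separate observations. No test of the members' direction was made. The median change of the listed members in either direction was 0.22, beside 0.26 over all genes in the authors' deposited table, which include low-count genes with large changes. Set against the median change of the 50 genes nearest to each in mean count, 7 of the 9 members lay above it. Among those, cas had 0.28 beside 0.14 and E(spl)m4-BFM 0.26 beside 0.20. The margin was small for ey (0.172 beside 0.165), Dl (0.192 beside 0.180) and E(spl)malpha-BFM (0.297 beside 0.276). dpn and E(spl)m6-BFM did not lie above it.

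**Figure D4:**
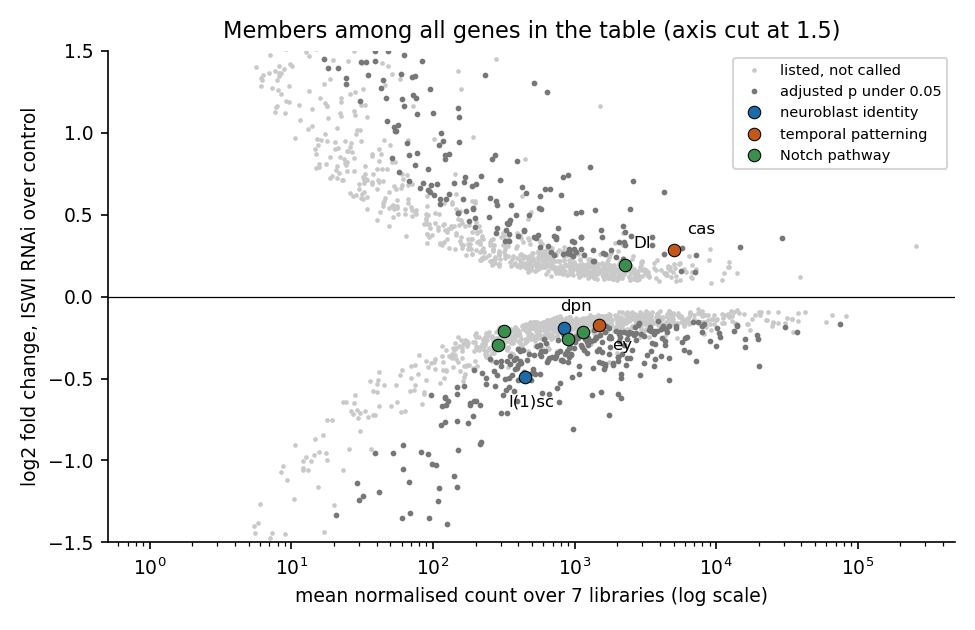
Log2 fold change (vertical axis, cut at 1.5 on both sides of 0) against mean normalised count on a log axis for all genes in the authors' deposited table, with the 9 listed members coloured by class and 5 of them named. The empty band around 0 is where p was 0.1 or more; most members lie along its lower edge, and l(1)sc and cas stand away from it.

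The precision of the values was set beside the calls, and why members were not called was not tested. In the authors' deposited table the median implied standard error was 0.10 for genes with a mean count of 200 to 1000 and 0.07 for 1000 to 5000, and the smallest change listed was 0.12 and 0.09. The smallest change called was 0.23 and 0.15. E(spl)malpha-BFM (-0.297) and E(spl)m4-BFM (-0.257) had values beyond -0.23 without a call. Both were smaller in size than any change called among the 50 genes nearest to each in mean count (from 0.391 and 0.259). Their implied standard errors, 0.15 and 0.10, were above the medians of the 50 genes nearest to them in mean count, 0.12 and 0.08. From 1000 to 5000, ey (-0.17), Dl (0.19) and E(spl)mgamma-HLH (-0.22) passed 0.15 in size without a call. They too were smaller in size than any change called among the 50 genes nearest to each (from 0.234, 0.213 and 0.230). Their standard errors, 0.09, 0.10 and 0.10, were also above such medians (0.07, 0.07 and 0.08). dpn was not called with an error below its median (0.07 beside 0.08). l(1)sc and cas were called with errors above theirs (0.13 beside 0.10 and 0.07 beside 0.06).

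Other genes of the same pathways were read from 4 further lists, 87 genes in all, of which 16 were listed and 3 called (1 higher, 2 lower). That is 3.45% called and again near the background. Of the 16, 13 had a positive and 3 a negative fold change (median 0.16), against 2 positive and 7 negative of the 9 listed members. No test of direction was made here either. On the list named for asymmetric cell division, which also held the ERK kinase gene rl, 2 of 20 genes were called. l(2)gl (lethal giant larvae), a tumour suppressor that restricts fate determinants to one side of the dividing neuroblast, had a log2 fold change of 0.25 in the authors' deposited table and was called higher (adjusted p 1.3e-04, implied standard error 0.05). rl (rolled), the fly ERK kinase, fell by 0.29 in the authors' deposited table (adjusted p 5.6e-04, implied standard error 0.07). l(2)gl lies at the very tip of 2L, from 9839 to 21376, and rl at the base of 2R, from 1071462 to 1125927. Their listed companions aPKC, mud and cno, which encode a polarity kinase, a spindle orientation protein and a junction protein, were listed without a call in the authors' deposited table, at 0.16, 0.16 and 0.17.

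Of 27 further Notch genes, sca (scabrous), a secreted protein that modulates Notch signalling, was the only call and had a log2 fold change of -0.25 in the authors' deposited table (mean normalised count 1741, adjusted p 0.021, implied standard error 0.08). An antisense RNA overlaps sca in the annotation, so reads may have been shared. The glycosyltransferase gene fng (fringe), the ubiquitin ligase gene Nedd4 and dx (deltex) were listed in the authors' deposited table at 0.14, 0.11 and 0.16, and their adjusted p were 0.45, 0.35 and 0.38. The other 23, among them neur, kuz and Psn, had no row.

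Of 18 further proneural and neuroepithelial genes 0 were called by the authors' DESeq2 comparison, and ato and Rx had an unadjusted p under 0.05. In the authors' deposited table ato (atonal), a proneural gene of the eye and sense organs, had a log2 fold change of 0.44 at a mean normalised count of 90.3 (adjusted p 0.32), and Rx, a homeobox gene, had -0.28 (adjusted p 0.165). da (daughterless), the partner of proneural proteins, was listed at 0.12, with scrt at 0.20 and Fas2 at 0.11, in the authors' deposited table. Of 22 further temporal genes 0 were called by the authors' DESeq2 comparison, and dan alone had an unadjusted p under 0.05. dan (distal antenna) came closest in the authors' deposited table, at 0.27 with an adjusted p of 0.07. let-7-C, the host of the late-acting let-7 microRNAs, was listed at 1.27 on a mean normalised count of 7.35 (adjusted p 0.45). 2 of these 22 names, BarH1 and BarH2, matched no gene in the references and were counted as not listed.

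**Figure D5:**
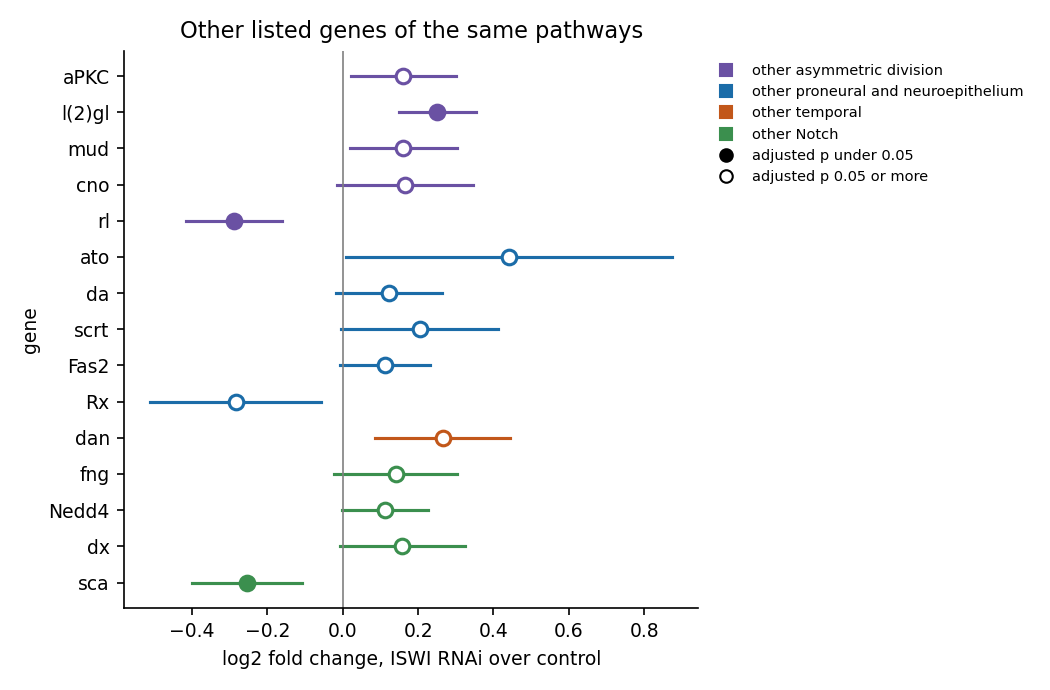
Log2 fold change with 95% intervals for the 15 other listed pathway genes whose mean count reached 50, coloured by list. Filled points passed an adjusted p of 0.05: l(2)gl at 0.25, rl at -0.29 and sca at -0.25; the low-count gene let-7-C is left out.

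Markers of other cells were read in the same comparison, where 21.5% of tested genes were listed and 4.65% called. Of 10 hemocyte markers 7 were listed, all positive between 0.33 and 1.54 on the log2 scale, and 2, NimC1 and Pxn, were called higher, in the authors' deposited table. Of 10 eye and imaginal disc markers 4 were listed, 2 in each direction, and 1, gl (0.94), was called in the authors' deposited table. ey is also 1 of those 10. Of 12 cell cycle genes, which dividing neuroblasts share with other dividing cells, 5 were listed, 4 of them negative, and 2, fzy (-0.27) and Top2 (-0.21), were called, in the authors' deposited table. The part of these cells in the values of l(1)sc, cas and the other members was not tested, and summed marker levels per group could not be formed without values per library.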

How the data were processed

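RNA of 7 libraries (3 control, 4 knockdown) was read as single reads of 100 bases from a directional kit, per the labels' protocols. The submitters' processing notes name the aligner STAR 2.5.0b, the build BDGP6 and DESeq2. The counting method and any use of strand are not given in the sources used here. The deposited comparison gives, per the file headers, a mean normalised count (a signal: counts divided by size factors, averaged by the authors), the authors' log2 fold change, and the authors' p-value and adjusted p-value. It also gives a gene length, another value deposited by the authors. With no values per library, the count model foreseen for such values was replaced by the planned reading of the deposited comparison. The table holds 2366 genes, and its adjusted p follow the Benjamini-Hochberg rule over 10775 tests; 54 genes with an adjusted p of 1 were left out of that count.

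The standard error implied by each fold change and p was computed as if p came from a Wald test, and the 95% intervals rest on it (Python 3.11.15, scipy 1.17.1). The number of tests and the standard errors were recovered from simulated data whose p came from a Wald test. That check could not show whether the authors' p did. No model was refitted and no list test was run. The alternatives were stricter and looser call thresholds, minimum mean counts, Bonferroni adjustment and matching by gene ID. Positions, exons and overlaps come from an Ensembl annotation of BDGP6, in which all 9 listed members have the same chromosome, start and end. Every listed member was named, with called genes and the 4 genes of smallest p from each further list. cno, da, the markers, BobA and the neighbouring genes fall outside that rule and were named after values were seen. The members and lists were chosen with earlier results of these data known.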

Additional observations from a re-analysis of the deposited data

How the results depend on the processing

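The count of 2 called members (1 neuroblast, 1 temporal, 0 Notch) stayed the same at an adjusted p under 0.01 or under 0.1, with a minimum mean count of 50, and with matching by gene ID. With an unadjusted p under 0.05 it was 7 members matched by symbol (2 neuroblast, 2 temporal, 3 Notch), where 14.7% of tested genes pass. BobA, matched by identifier, also passed that limit in the authors' DESeq2 comparison (p 0.0046). Other pathway genes were then 8 in place of 3. With a minimum of 500 the count was 1 member and 0 neuroblast genes, because l(1)sc lies at 449. With Bonferroni adjustment, added for the counts after the data were seen, it was 0 members, 0 neuroblast and 0 temporal genes, with adjusted p of 0.653 for cas and 1 for l(1)sc, and 1 other pathway gene, because that adjustment is stricter. No paired analysis was possible because the deposited comparison has no values per library, and for the same reason leaving out each replicate was not run. Depth per library is unknown, and the smallest change called in the authors' deposited table at mean counts of 200 to 1000 was 0.23.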

Other observations

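The gene structure of the 9 listed members was set beside that of the 48 with no row under their symbols. Bob, listed as BobA, is counted among the 48. The median span of the 9 in the annotation was 1.14 kb against 7.58 kb. Of the 9, 5 had 1 exon against 13 of 48, and 6 lay on chromosome 3R against 18 of 48. The 4 E(spl) genes are 4 of the 5 listed genes with 1 exon and 4 of the 6 on 3R, and no test was made.

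Around dpn, 4 other genes within 100 kb were listed in the authors' deposited table, and CG14757 was called, at 0.93 on the log2 scale (adjusted p 0.0032). LRP1, 2.53 kb from dpn, was listed at 0.19 and was not called.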
